A study of Mus musculus with 64 samples.

Results

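Far chromosome 14 is the part of mouse chromosome 14 that lies below 80 Mb or more than 22 Mb above that position (mm10, which is GRCm38), that is, the donor chromosome of these mice without the window around the place from which the transposons were launched. Its members are taken by position, and the rule uses no measured value. Of 385883 deposited insertion lines in 64 samples, 37435 lie there, and 35049 more lie in the left-out window. The launch site itself was read from the data as the 100 kb with the most insertions, chr14:90800000-90900000, and the own peak of each of the 64 samples lay within 1 Mb of it. The far part spans 102.9 Mb of sequence, 947 annotated RefSeq genes and 747 protein-coding genes.

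The code before the tissue in the sample name differed between all samples. Each sample was treated as a separate mouse, which the labels do not state. PB mice and SB mice carried a PiggyBac (PB) or a Sleeping Beauty (SB) transposase knocked into the Rosa26 locus (Rosa26 PB or Rosa26 SB, constitutive), together with an array of ITP transposon copies, which both enzymes can mobilise, at a donor locus. For the SB mice, Rosa26 SB/+ was combined with the donor lines ITP1-C and ITP2-M, all parents being Blm m3/m3, an allele that lowers the Bloom helicase. The PB mice came from an earlier ITP cohort, whose Blm genotype the sources used here do not restate, and the labels mark the systems as IMPB and IMSB. The strain background mixed C57BL/6, 129Sv and FVB, and neither the age of a mouse nor the ITP line it carried is given in the sources used here. The 4 groups were 30 PB tumours and 11 SB tumours, diffuse large B cell lymphomas taken from spleen, lymph nodes and other masses, and 12 PB tails and 11 SB tails, the control tissue. Tumour and tail differ in tissue as well as in disease, so transformation and cell type cannot be told apart in any comparison of these groups. PB and SB mice differ in cohort as well as in transposase, and may differ in Blm genotype and ITP line. These cannot be told apart in any comparison of the systems.

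As background, a cut-and-paste transposon is excised by its transposase and reinserts elsewhere, PB into TTAA and SB into TA. Copies tend to land on the chromosome they left, which is called local hopping and is stronger for SB than for PB. Genes that are hit in more tumours than the density of their surroundings predicts are the usual candidates of such a screen, and the donor chromosome is commonly set aside because local hopping fills it with insertions. Setting each gene against the density of far chromosome 14 in the same group is a way of reading it all the same.

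The insertion sites below, taken from 12 chosen by rule, are shown with the 20 bases on either side of the motif on the + strand of GRCm38 and the motif in capitals. They are the tumour positions hit in the most samples and the position in each tumour group with the largest share of its sample's reads, so they show what recurrence and clonal weight look like at single-base scale on this chromosome.
PB tumour, intron of Gpc6, chr14:117625458-117625501: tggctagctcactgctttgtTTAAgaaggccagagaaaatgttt
PB tumour, intron of Cacna1d, chr14:30292374-30292417: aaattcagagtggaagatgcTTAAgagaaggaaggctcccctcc
PB tumour, intron of Bmpr1a, chr14:34460955-34460998: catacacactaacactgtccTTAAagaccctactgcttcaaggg
SB tumour, between Fgf9 and 1700129C05Rik, chr14:58763524-58763565: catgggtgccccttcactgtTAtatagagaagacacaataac
SB tumour, coding exon of Slitrk6, chr14:110751599-110751640: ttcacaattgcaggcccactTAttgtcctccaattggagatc

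The Gpc6 site was found in 5 PB tumours with 36, 11, 10, 6 and 5 reads, a spread of weak signals. The Cacna1d site was found in 4 PB tumours, but 137546 of its 137554 reads came from PB tumour 3 and the other samples had 4, 2 and 2. PB tumour 3 is by far the deepest sample of the series, and whether reads are carried over between samples at such sites was not tested. The Bmpr1a site held 3.11% of the reads of PB tumour 23 and the Slitrk6 site 6.89% of the reads of SB tumour 9, each in 1 sample of its group. Counting the tails, the Bmpr1a site was found in 2 PB samples. The SB site between Fgf9 and 1700129C05Rik was hit in 4 tumours with 131, 33, 33 and 3 reads, and in 5 SB samples counting the tails. Such repeats were few, since 3.09% of the 7561 distinct PB tumour positions on far chromosome 14 occurred in more than 1 sample, against 1.61% of 3104 in PB tails, 0.781% of 8197 in SB tumours and 1.30% of 17803 in SB tails. On the other autosomes the shares were 3.67%, 1.79%, 0.462% and 0.287% in the same order, so the far PB shares lay below and the far SB shares above them. The groups differ in samples and insertions, which limits a comparison of shares between groups. In 17.1% of the shared PB tumour positions on far chromosome 14 at least 90% of the reads lay in a single sample.

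The samples held between 928 and 12005 insertions on the autosomes and between 80338 and 639805 reads, apart from PB tumour 3 with 6091729. Each motif position counted as 1 insertion in a sample, whatever its reads, which are PCR products without molecular identifiers and no count of molecules. On far chromosome 14 this left 7824 insertions in PB tumours, 3159 in PB tails, 8269 in SB tumours and 18041 in SB tails. Apart from PB tumour 3, other libraries stood out on far chromosome 14. The relative density, the gene calls and the edgeR comparisons were repeated with each of these libraries left out, and changed results are given both ways. The profile, the fall with distance, the gene body and read shares and the GC contrast were not repeated in this way. SB tail 2 had 105 insertions at 68 to 69 Mb, 5.32% of its far insertions against 1.25% in the other SB tails, SB tumour 8 had 57 at 115 to 116 Mb, a stretch that Gpc5 mostly fills (11.2% against 1.93%), PB tumour 4 had 27 at 67 to 68 Mb (11.2% against 1.06%), and SB tumour 7 had only 148 far insertions in all.

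Far chromosome 14 held the highest density of insertions per motif site of any autosome in SB tumours, SB tails and PB tails, and the second highest in PB tumours, where chromosome 11 was higher. Relative to the other autosomes, the density was 8.29 ± 1.09 in SB tails (SD, n = 11), 4.54 ± 1.10 in SB tumours (SD, n = 11), 1.54 ± 0.227 in PB tails (SD, n = 12) and 1.25 ± 0.295 in PB tumours (SD, n = 30). The lowest, median and highest samples were 5.97, 8.34 and 10.4 in SB tails, 3.07, 4.47 and 6.45 in SB tumours, 1.17, 1.55 and 1.84 in PB tails and 0.922, 1.19 and 2.20 in PB tumours. The SB groups lay wholly above the PB groups, and SB tumours and SB tails overlapped only between 5.97 and 6.45. Density on this chromosome was therefore raised well outside the window around the launch site: far chromosome 14 holds 4.11% of the TA sites searched but received 20.3% of the deposited SB tail lines.

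On the log2 scale, SB tumours were 0.89 below SB tails (two-sided permutation test, adjusted p = 1.3e-05, from a p of 1e-05 that is the smallest the resampling can give), and PB tumours were 0.31 below PB tails (adjusted p = 0.0022). The PB difference was computed within each form of sample name, tried as a possible batch, and passed in neither. It was -0.20 among the joined names (22 against 5 samples, exact permutation test, adjusted p = 0.13) and -0.30 among the separated names (8 against 7 samples, exact permutation test, adjusted p = 0.067). With the number in the sample name as a block, the differences were -0.30 for PB (exact permutation within numbers, adjusted p = 0.0056) and -0.89 for SB (adjusted p = 0.00059). The SB difference was -0.91 among the joined names (11 against 7 samples, exact permutation test, adjusted p = 0.00019). PB and SB, which also differ in cohort, differed by -1.85 in tumours and by -2.43 in tails, both at the same adjusted p of 1.3e-05. Whether the loss from tail to tumour was larger for SB than for PB was tested by permuting tissue within each system, and the difference of 0.59 gave p = 0.018 and 0.053 after adjustment over 3 such tests.

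**Figure D1:**
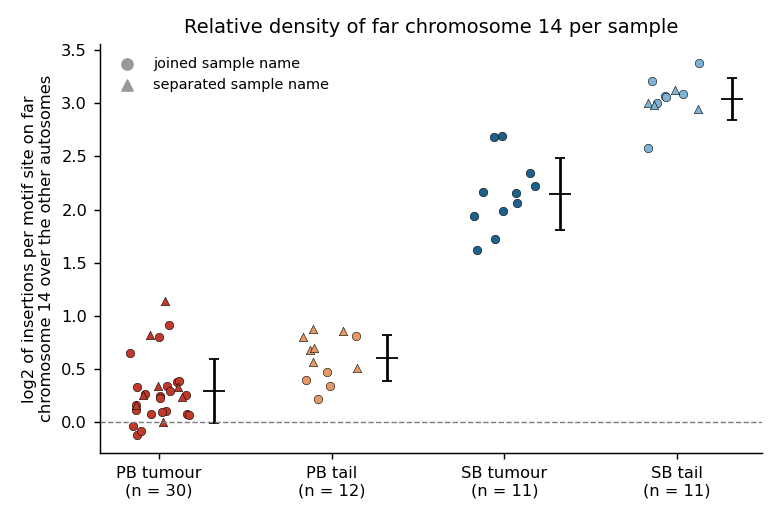
Log2 of insertions per motif site on far chromosome 14 over the other autosomes (y axis) for each sample of the 4 groups (x axis), with circles for joined and triangles for separated sample names; the bars give mean and SD, and the dashed line marks a density equal to that of the other autosomes. All SB samples sit above all PB samples, from 1.62 up in SB tumours against at most 1.14 in PB tumours.

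The density was not even along the chromosome, and its shape differed between the systems. On the distal side, beyond the window, SB tails reached 13.6 ± 2.08 and SB tumours 7.51 ± 2.52 (SD, n = 11 each), against 6.44 ± 0.920 and 3.50 ± 0.838 below 80 Mb. In PB tumours the values were 1.23 ± 0.469 on the distal side and 1.27 ± 0.257 below 80 Mb (SD, n = 30). In bins of 2 Mb, the SB tail density climbed from 10.9 in the bin next to the window to 17.5 at 114 to 116 Mb, so it was lower next to the window than 12 Mb farther out. A second SB rise lay at 38 to 40 Mb, more than 50 Mb from the launch peak, with 13.3 ± 2.83 in tails and 7.41 ± 2.95 in tumours (SD, n = 11 each). PB densities at 38 to 40 Mb were 1.07 in tails and 0.913 in tumours. Across the 51 bins, tumours and tails of a system had like profiles (Spearman 0.89 for SB, 0.74 for PB), and PB and SB had little in common (-0.13 in tumours, -0.14 in tails); these correlations describe bins that share samples and depth. All 4 groups were lowest at the centromeric end, where PB tumours had no insertion in the bin that starts at 2 Mb.

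**Figure D2:**
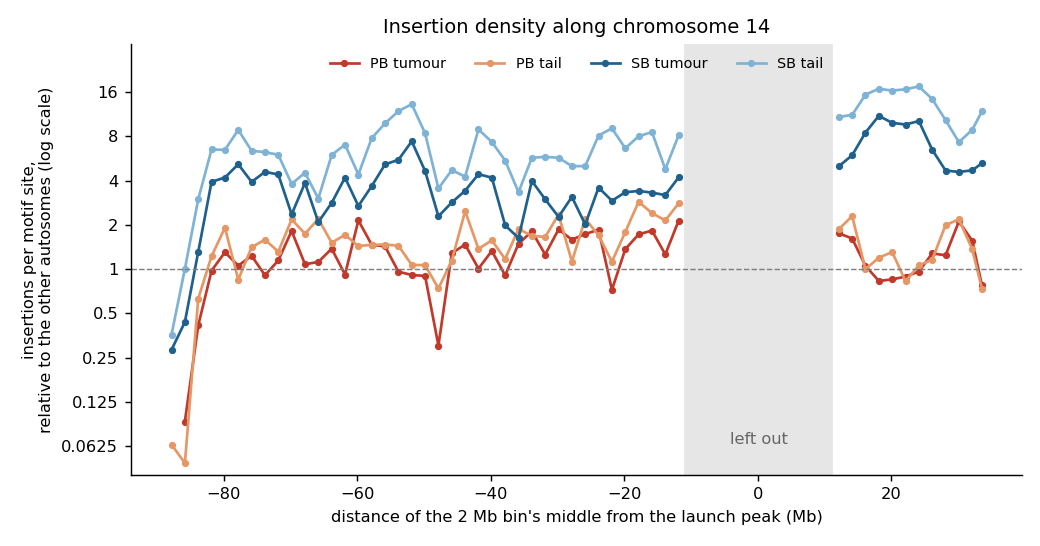
Mean insertions per motif site relative to the other autosomes (y axis, log scale) in 2 Mb bins of chromosome 14 against the distance of the bin's middle from the launch peak (x axis, Mb), with 1 line per group; the grey band is the left-out window, and a bin without insertions has no point. Outside the window the SB tail line peaks at 24.15 Mb (17.5), the SB tumour line at 18.15 Mb (11.0), and both rise again at -51.85 Mb (13.3 and 7.41), while both PB lines stay between 0.832 and 1.2 at these 3 distances.

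A fall with distance was measured as the density in the 10 Mb on either side of the window over that of the rest of far chromosome 14. It averaged 1.49 ± 0.221 in SB tumours, 1.5 ± 0.183 in SB tails, 1.35 ± 0.212 in PB tails and 1.16 ± 0.252 in PB tumours (SD). On the side below 80 Mb alone, the mean log2 ratio was -0.02 ± 0.43 in SB tumours and 0.16 ± 0.32 in SB tails, against 0.49 ± 0.33 in PB tumours and 0.72 ± 0.38 in PB tails (SD). PB tumours fell less steeply than SB tumours by 0.37 on the log2 scale (permutation test, adjusted p = 0.0046). That direction rested on where distance was measured: with the 5 Mb next to the window it turned to 0.37 in favour of PB (adjusted p = 0.016), and on the side below 80 Mb alone to 0.51 (adjusted p = 0.0012).

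The SB-rich bins were poor in GC. After the profile had been seen, the 9 far bins under 40% GC (36 to 40, 106 to 118 and 124 Mb) were set against the other 42, and the same was done on the other autosomes with 357 of 1153 bins. SB tumours had 2.35-fold the density in GC-poor bins of far chromosome 14, but 0.982-fold on the other autosomes, and SB tails 2.34-fold against 1.01-fold. The difference between the chromosomes was 1.26 ± 0.255 in SB tumours and 1.21 ± 0.155 in SB tails on the log2 scale (SD, n = 11 each), above 0 in 11 of 11 samples of each. PB had fewer insertions in GC-poor bins on both, 0.675-fold against 0.544-fold in tumours and 0.668-fold against 0.515-fold in tails, with differences of 0.31 (above 0 in 21 of 30 samples) and 0.37 (10 of 12 samples). Since the split was prompted by the profile of the same samples, and all samples share these 9 bins, the contrast is a description without a test. With a limit of 41% GC, or with 10 Mb more left out on each side, each of these differences kept its sign. Over the bins, GC content and SB tumour density had a Spearman correlation of -0.68 on far chromosome 14 and 0.07 elsewhere, and the GC-poor bins also hold few genes (0 to 12 per bin, against 3 to 84 in the others).

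PB insertions lay in genes more often than their motif does. In PB tumours 57.3% ± 5.92 of the far insertions were in a gene body (SD, n = 30), against 44.1% of the TTAA sites, a surplus of 13.1 percentage points that was above 0 in 29 of 30 samples (sign-flip permutation test, adjusted p = 4e-05). PB tails had 51.4% ± 3.38 (SD, n = 12), a surplus of 7.24 points in 12 of 12 samples (adjusted p = 0.00098). The SB values lay close to the motif, with 43.8% ± 3.93 in tumours and 41.7% ± 1.75 in tails (SD, n = 11 each) against 42.8% of the TA sites, and neither difference passed (adjusted p = 0.40 and 0.091). With 10 Mb more left out on each side the SB surplus became 5.53 points in tumours and 3.30 in tails, and both passed, so the SB result depended on the sequence next to the window. For the share of reads on far chromosome 14 relative to its share of insertions, tumours minus tails came to -0.41 for PB (permutation test, adjusted p = 0.34) and -0.02 for SB (adjusted p = 0.86) on the log2 scale, and neither passed.

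Recurrently hit genes were found with the simplified model of the study, TransmicronNULL: a gene is expected to take the far insertions of its group in proportion to its motif sites, and it is called when its insertions exceed that number (one-sided Wald test, Bonferroni over all autosomal genes, at least 3 samples and 5% of samples hit). PB tumours had 36 such genes of 900 tested on far chromosome 14, which is 4.0% against a background of 4.92% of all autosomal genes tested in that group. PB tails had 10 (background 1.24%), SB tumours 8 of 941 (background 0.415%) and SB tails 8 (background 0.202%). On far chromosome 14 the called shares were 1.11% in PB tails and 0.850% in each SB group, so the PB shares were near the background and the SB shares above it. The SB density was higher on far chromosome 14, and the number of insertions a gene was expected to take was not matched between far and other genes. With a gene counted once per sample, the SB shares were 0.106% in tumours and 0% in tails, against 0.0671% and 0.0377% on the other autosomes. The SB calls include long genes in the SB-rich bins. TransmicronNULL corrects for motif sites only, whereas the full model of the paper also uses sequence, genes and open chromatin and called fewer genes. That model was not run here, so calls and folds are not corrected for the surplus of PB insertions in gene bodies. Summed over all far genes, insertions came to 1.33-fold of expectation in PB tumours, 1.17 in PB tails, 1.01 in SB tumours and 0.967 in SB tails. With the density taken per 10 Mb block in place of 1 value for the whole far part, the calls were 32, 8, 10 and 7 (backgrounds 4.9%, 1.23%, 0.423% and 0.198%), of which 28, 7, 6 and 4 were among the first calls. Exchanging the Wald test for an exact Poisson test left 20, 3, 4 and 7 (backgrounds 2.82%, 0.367%, 0.149% and 0.0807%), and intervals and tests on these sums cover counting error only. In all 53 genes were called in any group and 8 in more than 1, and the like share over all autosomal genes was not computed. The overlap depended on the density, since PB and SB tumours shared Rbm26 and Stk24 at first, but Pspc1, Ints6, Elf1 and Stk24 with block densities.

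The strongest PB tumour gene was Elf1, an ETS transcription factor of lymphoid cells (chr14:79481174-79582491), with 81 insertions where 9.52 were expected, 8.5-fold, in 25 of 30 tumours (Wald test, adjusted p = 1.2e-78). The lowest, median and highest tumours had 0, 2 and 11 insertions. PB tails were also above expectation at Elf1, with 19 against 3.85 in 9 of 12 samples (4.94-fold, adjusted p = 3.9e-08), and the tumours did not pass the edgeR comparison with the tails (log2 difference 0.75, adjusted p = 0.28). In SB the gene had 20 insertions against 8.68 in tumours and 27 against 18.9 in tails, without a call (with block densities it was called in SB tumours, at 3.13-fold). Elf1 lies just below the left-out window, and its insertions were all but 3 intronic in PB tumours, 55.6% of them in the gene's own direction (95% Clopper-Pearson interval 44.1% to 66.6%).

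Ubac2, which encodes a ubiquitin-associated protein of the endoplasmic reticulum (chr14:121878559-122021035), had 71 insertions against 10.1 in PB tumours, again in 25 of 30 samples, with 0, 2 and 7 as lowest, median and highest. The receptor genes Gpr183, a guidance receptor of B cells, and Gpr18 lie inside it, so insertions there count for both, but only 4 of the 71 were in Gpr183 and 4 in Gpr18. Gpr183 itself had 4 insertions against 1.14 and was not called. PB tails had 9 Ubac2 insertions against 4.07, SB tumours 6 against 10.1 and SB tails 25 against 22. Ubac2 was thus called in 1 of the 4 groups.

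**Figure D3:**
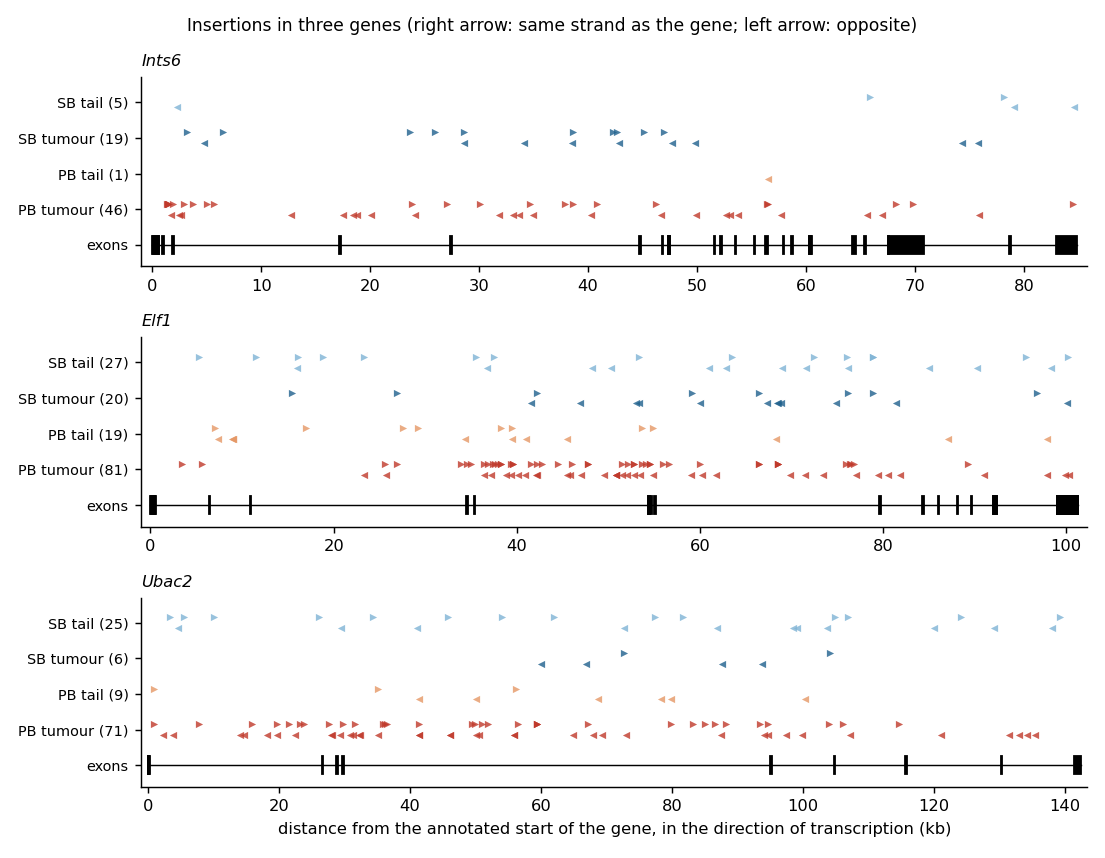
Positions of all insertions in Ints6, Elf1 and Ubac2 (x axis, kb from the annotated start in the direction of transcription), with 1 row per group, right arrows for insertions on the gene's strand and left arrows for the opposite strand; black bars are exons of any annotated transcript, and the number of insertions stands in brackets. The 81 PB tumour insertions in Elf1 cover both directions with a median 50.8 kb from the start, and Ints6 holds 1 insertion in PB tails and 5 in SB tails.

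The other calls at the head of the PB tumour list had smaller sums. Sh3bp5, an adaptor that binds the B cell kinase Btk (chr14:31372614-31436100), had the highest fold of the well-filled genes, with 36 insertions against 3.39 (10.6-fold) in 17 samples. Ptk2b, the kinase Pyk2 of integrin and antigen receptor signalling (chr14:66153257-66281100), had 38 against 7.21 in 20 samples. Dleu2 (chr14:61602836-61682373) hosts the microRNAs miR-15a and miR-16-1, whose loss is known from human lymphoid leukaemia, and had 45 against 9.80 in 22 samples. Lrch1, a leucine-rich repeat protein (chr14:74754673-74948007), had 54 against 14.3 in 19 samples. Dleu2 and Lrch1 were also called in PB tails, with 16 against 3.96 in 10 of 12 samples and with 18 against 5.77 in 10 of 12, where neither passed the exact Poisson test and Lrch1 was lost with block densities (2.04-fold), and edgeR found no difference past the threshold between tumours and tails (log2 0.16, adjusted p = 0.88, and 0.23, adjusted p = 0.83). Over all 36 PB tumour calls the median was 3.89-fold in 17 samples, and 5 calls had fewer than 5 insertions. None of the 45 Dleu2 insertions fell in either microRNA, and 3 lay in parts shared with Kcnrg or Trim13.

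Of the 10 PB tail calls, 3 were also PB tumour calls (Elf1, Dleu2 and Lrch1). Tnfrsf19, a receptor expressed in hair follicle stem cells (chr14:60963834-61046855), had 14 insertions against 2.54 in 8 of 12 tails, and Ppp2r2a, a regulatory subunit of the phosphatase PP2A (chr14:67014056-67072471), had 12 against 2.44 in 7. The calls Rnase10, Ajuba and Zfp219 rest on 4 insertions each, where 0.056, 0.14 and 0.24 were expected. Of these only Rnase10 also passed the exact Poisson test. Ppp2r2a was called in SB tumours (20 against 5.34 in 10 of 11) and SB tails (36 against 11.6 in 10 of 11) too, so it was called in 3 of the 4 groups, and PB tumours were also above expectation with 16 against 6.04, without a call. The PB tail call did not pass the exact Poisson test.

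**Figure D4:**
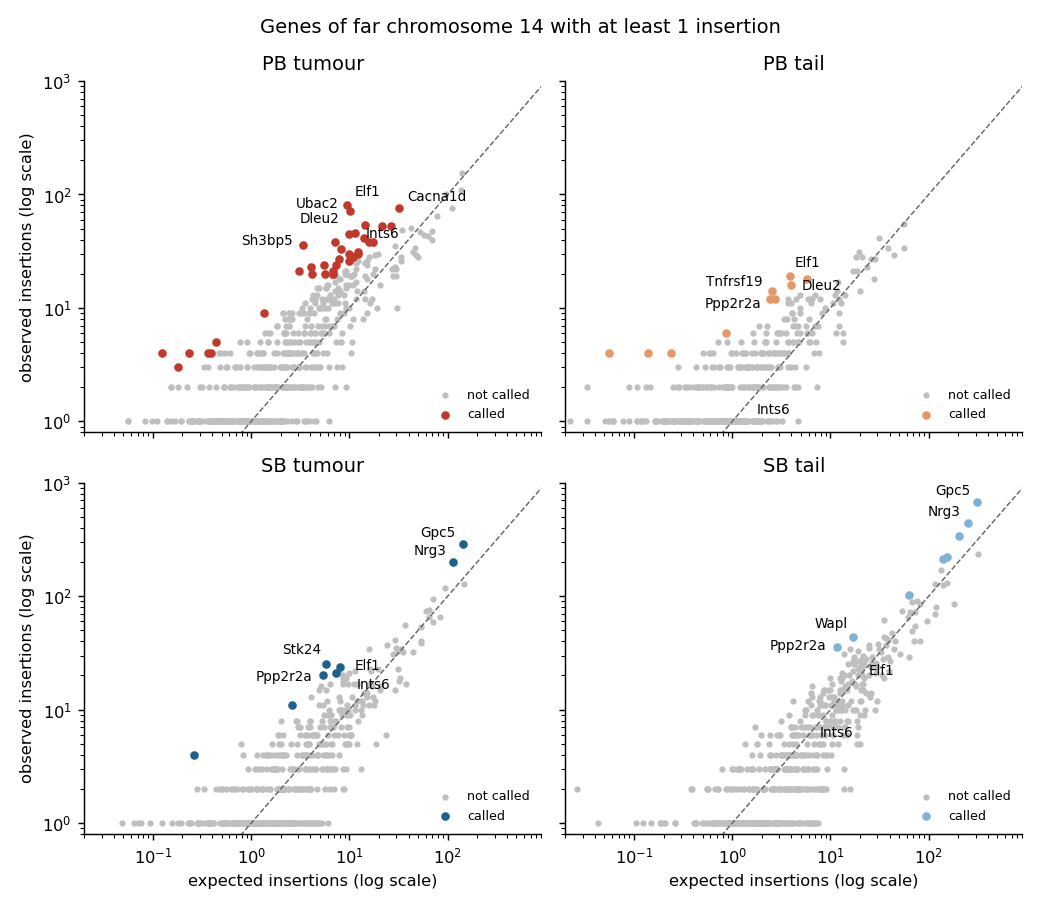
Observed (y axis, log scale) against expected (x axis, log scale) insertions for the genes of far chromosome 14 with at least 1 insertion, with 1 panel per group; coloured points are called genes, grey points are not called, and the dashed line marks equality. The labelled genes were picked after their values were seen. PB tumour calls lie at 31.7 expected insertions (Cacna1d) or fewer, whereas SB tail calls include genes with over 100 expected (Gpc5 at 677 observed).

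SB calls were led by very long genes. Gpc5, a cell surface heparan sulfate proteoglycan (chr14:115092201-116525192, 1433 kb), had 677 insertions against 313 in SB tails and 287 against 144 in SB tumours, in 11 of 11 samples of each. Nrg3, a neuronal growth factor (chr14:38365102-39473235, 1108 kb), had 444 against 249 and 200 against 114, again in 11 of 11. Gpc5 took 36.8 ± 6.62 per 1000 far insertions in SB tails and Nrg3 24.4 ± 5.40 (SD, n = 11). In SB tumours Gpc5 took 37.5 ± 30.4, with a highest value of 128 in SB tumour 8, the sample with the cluster there, and 28.4 ± 5.43 without it (SD, n = 10). Both genes lie in the GC-poor, SB-rich bins, and with block densities their folds fell to 1.40 and 1.5 in tails and to 1.37 and 1.53 in tumours, still called. Gpc6, Hs6st3 and Fgf14, called in SB tails at 1.65-fold, 1.51-fold and 1.44-fold, were not called with block densities, and Hs6st3 and Fgf14 then lay below expectation (0.977 and 0.932). In PB tumours Gpc5 and Nrg3 were below expectation, at 0.788-fold and 0.686-fold.

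Among shorter genes, SB tumours had calls at Stk24, a sterile-20 kinase (chr14:121284187-121380496), with 25 insertions against 5.84 in 10 of 11 samples, and at Rbm26, an RNA-binding protein (chr14:105106751-105181039), with 24 against 8.04 in 8 samples. Both were also called in PB tumours, Stk24 with 24 against 5.45 in 11 of 30 and Rbm26 with 30 against 9.84 in 20 of 30. Rbm26 was lost in SB tumours with block densities (1.62-fold). Wapl, the factor that releases cohesin from chromatin (chr14:34672379-34747983), was called in SB tails with 44 against 16.9 in 11 of 11, and stood at 21 against 7.75 in SB tumours (adjusted p = 0.060). Top2b, a DNA topoisomerase, was called in SB tumours with 21 against 7.31, and without SB tumour 8 its adjusted p was 0.11. Polr3d rested on 4 insertions against 0.262 at 2 positions and did not pass the exact Poisson test.

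Whether a gene was hit more in tumours than in tails was tested directly with edgeR, on insertions per sample and gene with each sample's far insertions as the offset. In PB, 165 of the 947 far genes had at least 10 insertions and were tested, and 6 were higher and 1 lower in tumours at an adjusted p below 0.05, which is 3.64% and 0.606% against backgrounds of 2.15% and 2.18% over all autosomal genes tested; 26 had an unadjusted p below 0.05. In SB, 199 were tested, and 2 were higher and 0 lower (1.01% and 0% against 0.813% and 0.148%; 17 had an unadjusted p below 0.05, and DESeq2 also called 0 lower). The PB count depended on the fit, with 1 gene higher and 0 lower by DESeq2, 3 and 1 with TMM factors, 2 and 0 with the name form in the fit, and 0 and 0 both when a gene was counted once per sample and when the number in the sample name (as in IMPB1, of unknown meaning) was a block. The SB counts became 1 and 0 by DESeq2, 0 and 6 with TMM, 1 and 0 with the name form, 0 and 0 counted once and 2 and 0 with the block. TMM factors, and total insertions as library size (given below), took the place of the far insertions as offset. Those fits therefore do not set a gene against the density of far chromosome 14, which was lower in tumours than in tails.

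Ints6 was the 1 gene of far chromosome 14 that passed this test in both systems. It encodes a subunit of the Integrator complex, which processes the ends of small nuclear RNAs, and is also known as a candidate tumour suppressor (chr14:62676325-62761163). PB tumours had 46 insertions in 24 of 30 samples against 11.4 expected, and PB tails had 1 in 12 samples against 4.62. SB tumours had 19 in 9 of 11 samples against 9.17 (called only with block densities), and SB tails had 5 in 4 of 11 against about 20. Per 1000 far insertions, the lowest, median and highest samples were 0, 4.91 and 18.6 in PB tumours, 0, 0 and 6.58 in PB tails, 0, 1.77 and 27 in SB tumours and 0, 0 and 0.831 in SB tails. Without SB tumour 7, at 27, the mean of the SB tumours fell from 4.0 to 1.69. The tumours were therefore above their expectation and the tails below theirs, although the groups overlapped at 0. The log2 difference was 2.98 in PB (edgeR, adjusted p = 0.0012) and 2.71 in SB (edgeR, adjusted p = 0.0017). Without SB tumour 7, which had 4 of its 148 far insertions in Ints6, the SB value was 2.36 (adjusted p = 0.035). In PB the difference was lost when only insertions with at least 10 reads were kept (1.59, adjusted p = 0.11) and when a gene was counted once per sample (2.16, adjusted p = 0.44), and with the number block it missed the threshold (2.53, adjusted p = 0.052). In SB it passed with that block (3.40, adjusted p = 0.00051) and was lost with TMM factors (1.86, adjusted p = 0.12), with total insertions as library size (2.08, adjusted p = 0.055) and when counted once per sample (1.87, adjusted p = 0.99), and each of these values kept the sign. Of the insertions, 3 of 46, 2 of 19 and 3 of 5 in PB tumours, SB tumours and SB tails lay in the part shared with Serpine3. The Ints6 insertions ran in both directions, with 50.0% in the gene's own direction in PB tumours over the whole gene (95% interval 34.9% to 65.1%). From 1.34 to 5.67 kb after the annotated start, most PB tumour insertions lay in the gene's own direction. That stretch was picked after the map was seen and was not tested.

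Xpo4, a nuclear export receptor (chr14:57577521-57668232), had a like pattern at fewer insertions. It had 19 insertions in 14 of 30 PB tumours and 0 in 12 PB tails, where 4.17 were expected, and the fit gave a log2 difference of 2.61 (edgeR, adjusted p = 0.015), a value that depends on the prior count since the tails held none. The call was lost by DESeq2 (1.69, adjusted p = 0.54), when a gene was counted once per sample (adjusted p = 0.44) and with the number block (2.60, adjusted p = 0.060). It was also lost without a minimum of insertions (edgeR, 2.61, adjusted p = 0.061). In SB it had 17 in 7 of 11 tumours and 8 in 4 of 11 tails against 18.8 expected, a difference of 2.01 (adjusted p = 0.058, or 0.042 without SB tumour 8). Stk24 was the other SB gene past the threshold, at 1.75 (adjusted p = 0.046), or 1.72 without SB tumour 8 (adjusted p = 0.063). It held with the number block (2.18, adjusted p = 0.014) and was lost with the name form in the fit (1.73, 0.11), by DESeq2 (1.87, 0.35), with TMM factors (0.85, 0.51) and with total insertions as library size (1.04, 0.35). By edgeR it was also lost with at least 10 reads (adjusted p = 0.078), with at least 5 insertions (0.11), without a minimum (0.44) and when counted once per sample (0.99). Stk24 did not pass in PB (0.58, adjusted p = 0.59). Its SB values ran from 0 to 9.08 per 1000 far insertions in tumours (median 2.04) and from 0 to 1.66 in tails (median 1.04).

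**Figure D5:**
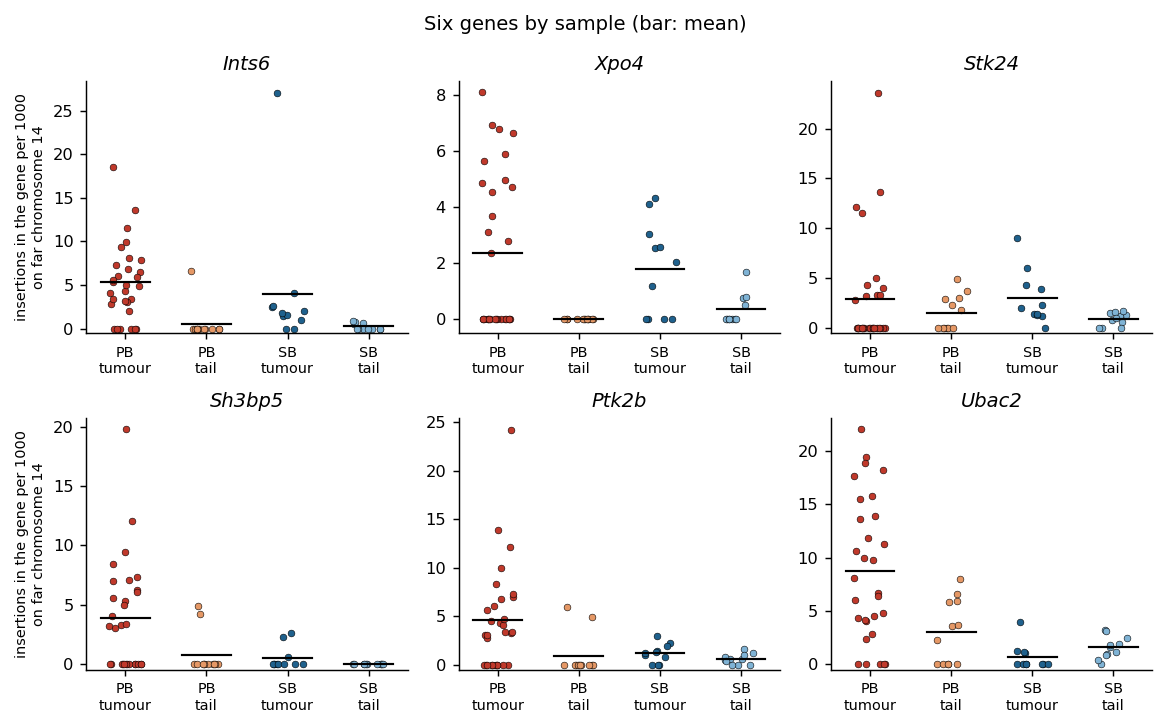
Insertions in 6 genes per 1000 far chromosome 14 insertions of the same sample (y axes, each from 0 with its own scale) for every sample of the 4 groups (x axis); bars are group means. The genes were chosen after their values were seen. Ints6 averages 5.29 in PB tumours and 0.548 in PB tails, and 4.0 in SB tumours and 0.257 in SB tails, with 1 SB tumour at 27 (1.69 in SB tumours without it).

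The other PB genes higher in tumours were Sh3bp5 (log2 2.16, edgeR, adjusted p = 0.021), Ptk2b (1.89, adjusted p = 0.040), Ubac2 (1.52, adjusted p = 0.032) and Rnf17, a germ-cell protein, which is named here only to complete the count and was chosen after its values were seen. None of Sh3bp5, Ptk2b and Ubac2 passed by DESeq2 (adjusted p = 0.17, 0.19 and 0.11), with the name form in the fit (0.11, 0.14 and 0.074), with total insertions as library size (0.074, 0.10 and 0.13) or with the number in the sample name as a block (0.15, 0.12 and 0.060), and with TMM factors only Sh3bp5 did (0.041). By edgeR, Sh3bp5, Ptk2b and Ubac2 were also lost without a minimum of insertions (adjusted p = 0.12, 0.20 and 0.17) and when counted once per sample (0.72, 0.49 and 0.95). Sh3bp5 had 2 insertions in 12 PB tails and 36 in 30 tumours. Ptk2b had 3 and 38, and Ubac2 9 and 71. In SB, Ptk2b (0.87, adjusted p = 0.73) and Ubac2 (-0.89, adjusted p = 0.67) did not pass, and Sh3bp5 had too few insertions for the test, 5 in tumours and 0 in tails where 8.13 were expected. Whether the systems differed at these genes was not tested. Kcnma1, a potassium channel gene of 713 kb, was the PB gene lower in tumours (29 insertions against 31 in the fewer tails, log2 -1.25, adjusted p = 0.045, or -1.21 and 0.053 without PB tumour 3, 0.16 by DESeq2, 0.12 with the name form and 0.23 with the number block). Enox1 was next in order (-1.07, adjusted p = 0.099). In SB the genes with the smallest p among those lower in tumours, Kctd9 (0 against 10 insertions) and Msra (6 against 31), did not pass (adjusted p = 0.21 and 0.52). Msra, a methionine sulfoxide reductase, was called in PB tumours with 53 insertions against 21.6 in 21 samples, and lay below expectation in both SB groups (0.254-fold in tumours and 0.601-fold in tails).

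The genes of far chromosome 14 were also grouped by known roles. These lists were drawn up with earlier results of these data known, so their counts are descriptions and test no enrichment. Of 26 genes of lymphoid signalling, 4 were called in PB tumours, where 4.0% of the far genes and 4.92% of all autosomal genes were called, and 0 in each of the other groups. These were Ptk2b, Lcp1, an actin-bundling protein of leukocytes, with 33 insertions against 8.25 in 18 samples, Wdfy4, known from antigen presentation in dendritic cells, with 41 against 14 in 20 samples, and Ppp3cb, a calcineurin subunit, with 20 against 6.84 in 11 samples (not called without PB tumour 3, adjusted p = 0.67, nor with block densities). The median member lay at 1.97-fold of expectation in PB tumours, against 0.730 over all 900 far genes, at 1.0 against 0 in PB tails, at 0.182 against 0 in SB tumours and at 0.544 against 0.441 in SB tails. Many far genes are short and held no insertion, and the sums ran differently: the insertions of all members over all expected came to 2.59 in PB tumours (1.33 for all far genes), 1.49 in PB tails (1.17), 0.912 in SB tumours (1.01) and 0.831 in SB tails (0.967), so in SB the list lay below the far genes by its sum. In the direct comparison 8 of the 26 were tested in PB, all 8 had a value above 0 and Ptk2b passed. Their median log2 difference was 0.83, but the median of all 165 far genes tested in PB was itself above 0, at 0.29. In SB 6 were tested, 3 had a value above 0 and 0 passed, with a median of 0.07 against 0.04 over the 199 far genes tested.

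Of 26 tumour suppressor and chromatin genes, 4 were called in PB tumours (Atxn7, Dleu2, Elf1, Ints6), 3 in PB tails (Dleu2, Elf1, Zmiz1), Top2b in SB tumours and 0 in SB tails, beside called shares of 4.0%, 1.11%, 0.850% and 0.850% of the far genes. With block densities the counts were 5, 2, 3 and 1, Zmiz1 being lost in PB tails. Their median folds were 2.02, 1.49, 1.02 and 0.876, and the folds of their sums 1.78, 1.46, 1.05 and 0.871. Atxn7, a SAGA complex subunit, was not called without PB tumour 4 (2.12-fold). Of 23 genes of skin and mesenchyme, Bmpr1a and Mbnl2 were called in PB tumours and 0 in the other groups, including the tails; Bmpr1a was lost without PB tumour 3 (adjusted p = 0.74) and Mbnl2 without PB tumour 4 (adjusted p = 0.17). Of 18 long neuronal genes, Cacna1d was called in PB tumours (76 against 31.7 in 23 samples), Gpc5 and Nrg3 in SB tumours and 5 in SB tails, of which 2 were left with block densities. The Cacna1d excess over PB tails (11 against 12.8 expected) gave a log2 difference of 1.32 (edgeR, adjusted p = 0.058).

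Several tumour suppressor and B cell genes chosen for their known roles were not called in any group. Rb1, the retinoblastoma tumour suppressor (chr14:73192858-73325951), had 26 insertions against 15.3 in PB tumours, 12 against 6.16 in PB tails, 12 against 13.2 in SB tumours and 26 against 28.8 in SB tails. Kat6b, a histone acetyltransferase, had 24 against 15.1 in PB tumours, and Pbrm1, a chromatin remodelling subunit, 17 against 11.6. Zmiz1, a coactivator, was the exception and was called in PB tails (12 against 2.71, lost with block densities and by the exact Poisson test) and had 19 against 6.70 in PB tumours (adjusted p = 0.065). The short genes Bap1, a deubiquitinase of chromatin, Prkcd and Blk, kinases of B cells, and Mir17hg, the host of the miR-17 to miR-92 cluster, were each expected to take at most 2.20 insertions in PB tumours and took 1, 2, 4 and 0.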

How the data were processed

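Tumour and tail DNA was sheared and ligated to splinkerette adapters, junctions of transposon and genome were amplified, and libraries were sequenced on a MiSeq (75 bp, paired-end). The authors deposited 1 line per sample, position and strand with the raw count of reads, not normalized, on mm10 per the labels; the aligner, insertion caller and read filters are not given in the sources used here. No line had fewer than 2 reads, and a low read minimum can admit carry-over between samples. A deposited coverage column (1 column) was not used.

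Each position was assigned to the closest motif (PB: TTAA, SB: TA) at most 5 bp away, and a motif was counted once in each sample. Genes were RefSeq gene bodies of GRCm38, and insertions in overlapping genes were counted for each. Densities were compared by permutation of samples (100000 resamples, exact where a group had under 10 samples) with Benjamini-Hochberg adjustment, gene calls used TransmicronNULL, and tumours were compared with tails by edgeR quasi-likelihood tests on genes with at least 10 insertions, adjusted over all autosomal genes. Both gene tests were also run on counts simulated under their own assumptions. Those counts had no clusters of single samples, so the runs show nothing about how the tests handle them. Named genes were the 6 strongest calls of each group, the 2 strongest edgeR genes per system and direction, 12 fixed genes and called members of the 4 lists; the region, these members and the lists were chosen with earlier results of these data known. The tools were Python 3.11.15 (numpy 2.4.6, pandas 2.3.3, scipy 1.17.1, matplotlib 3.10.9) and R 4.3.3 (edgeR 4.0.16, DESeq2 1.42.0). The alternatives are given at the end; the GC contrast, the libraries left out and the block on the number in the name were added after seeing the data.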

Additional observations from a re-analysis of the deposited data

How the results depend on the processing

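No paired analysis was possible because the replicate numbers used here only follow accession order and no label ties a tail to a tumour of the same mouse. Names do share a number after the system, whose meaning is not given, and it was tried as a block. Of the alternatives to the comparisons, 135 left direction, call or count in place, 47 moved a count, 4 lost and 3 gained significance and 5 turned a direction; for named genes the numbers were 416 in place, 148 lost, 1 gained and 6 turned. The density difference of PB tumours and tails lost significance within joined (-0.197) and separated names (-0.303). The fall of density, PB minus SB, lost it in tumours with at least 10 reads (-0.386) and with medians (-0.295), and turned with 5 Mb next to the window (0.367 in tumours, 0.346 in tails) and on the proximal side only (0.510 and 0.556); the PB tumour minus tail value passed without shared positions (-0.236). The gene body share of SB tails passed with protein-coding genes only (-1.32), and with 10 Mb more left out SB tumours passed (5.53) and SB tails turned (3.30). The cause was not tested.

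The numbers of called genes (tumours then tails, PB before SB) were 123, 28, 22 and 15 with Benjamini-Hochberg adjustment, 13, 3, 1 and 0 with a gene counted once per sample, and 21, 2, 4 and 5 with block density and exact Poisson test together. The exact Poisson test gave 20, 3 and 4 in the first 3 groups. At least 10 reads left 12 in PB tumours and 5 in SB tumours, the sides apart gave 14 in SB tumours, and leaving out shared positions gave 6 in PB tails. Leaving out the libraries that stand apart gave 30 to 34 in PB tumours and 7 to 8 in SB tumours. Counts higher and lower by edgeR were, in PB, 2 and 2 with total insertions as library size, 3 and 1 with TMM, 1 and 0 by DESeq2, 3 and 0 with at least 5 insertions, 1 and 0 without a minimum, 1 and 1 with at least 10 reads, 0 and 0 once per sample, 2 and 0 with the name form, 0 and 0 with the number block, and 5 to 6 and 0 to 1 without PB tumour 3 or 4. In SB they were 0 and 5, 0 and 6, 1 and 0, 1 and 0, 1 and 0, 1 and 0, 0 and 0, 1 and 0, and 2 and 0 in the same order, and 2 and 0 to 1 without SB tumour 7, SB tumour 8 or SB tail 2. In SB tails, Fgf14 turned to 0.932 with block density, with and without the exact Poisson test, and to 0.882 with the sides apart, and Hs6st3 to 0.977 and 0.925. Wald calls of genes that expect under 1 insertion rest on few insertions, and of those named only Rnase10 passed the exact Poisson test.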
